A study of Mus musculus with 6 samples.

Results

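The genes described here are 47 that build ribosomes, from transcription of ribosomal RNA by RNA polymerase I to export of the finished subunits. They were chosen by symbol, and all 47 of 47 symbols were found among the 42256 genes of the deposited count table and passed the filter on low counts. The list was proposed with the knockout against wild-type differences of these libraries already known. The difference between genotypes in these 47 genes is therefore a description, and neither the fold changes nor the counts of changed genes support anything beyond themselves. RNA was sequenced from untreated macrophages grown for 7 days from the bone marrow of adult male mice of a mixed 129S1/Sv x C57BL/6 background. The groups are mice with an intact Cdh11 gene (CDH11+/+, wild type, WT, 3 libraries) and mice without it (CDH11-/-, knockout, KO, 3 libraries). Every culture received 20% L929-conditioned medium and 10% serum. L929 medium brings the macrophage growth factor CSF1 together with other, undefined products of those cells, and the deletion was not restricted to macrophages as far as the labels say. The series' design text counts 3 WT and 4 KO animals, and the labels do not tie a library to an animal, so the errors given measure the spread between these libraries.

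A ribosome begins in the nucleolus, where RNA polymerase I copies the ribosomal DNA into a long precursor RNA. Small nucleolar ribonucleoproteins (snoRNPs) methylate and pseudouridylate that precursor, the small-subunit processome folds and cleaves it, and separate chains of assembly factors then mature the small and the large subunit and carry them to the cytoplasm. Growing and dividing cells spend much of their capacity on this pathway, and bone marrow progenitors divide under CSF1 while they become macrophages. MYC is the best known transcription factor that drives many of these genes.

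The libraries held 27170943 to 37113689 counts. Values are CPM, counts scaled to a common library total of 1000000 after TMM correction, given in the order of libraries 1 to 3 of each genotype, and as mean ± SD with n = 3 per genotype. The verbs rose and fell are kept for genes with a p under 0.05 in edgeR's quasi-likelihood test, adjusted by Benjamini-Hochberg over all 12862 genes that passed the filter. Cdh11 had 6, 11 and 6 counts in WT and 6, 4 and 5 in KO (two-sided exact permutation test of CPM, p = 0.5, where 3 against 3 libraries cannot go below 0.1), so its transcript does not check the labels. All 10 macrophage markers examined were present. Their sum went from 36370 ± 2130 CPM in WT to 26260 ± 3380 CPM in KO. Most of that sum was Lyz2, at 23640 ± 1033 CPM in WT and 15910 ± 2603 CPM in KO. Csf1r and Lyz2 fell, Cd68 rose and 7 of the 10 were not called. Markers of megakaryocytes summed to 208.5 to 309.6 CPM over all libraries, of which Pf4, not called, held 164.6 to 271.2 CPM. The 3 of 5 tested that rose, Ppbp, Itga2b and Gp1ba, reached at most 7.00, 6.83 and 1.13 CPM. Of the 6 progenitor markers Kit rose, to at most 1.30 CPM, and 5 were not called. Log2 fold changes were above 0 for 3 of the 6 and below 0 for 3. The progenitor markers summed to 147.6 to 249.7 CPM, of which Ccr2, not called, held 132.2 to 240.0 CPM. Dendritic markers summed to 1.23 to 2.26 CPM, and 0 of the 3 tested were called. Markers of neutrophils summed to 27.3 to 93.0 CPM, those of erythroid and of mast cells and basophils stayed under 0.5 CPM, and those of lymphoid and of stromal cells under 7 CPM. In bulk RNA, fewer cells that express a gene and less RNA of it per cell cannot be told apart, and CPM say nothing about the total RNA of a cell.

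Most of these genes had more RNA in KO than in WT macrophages. Of the 47, 42 rose in KO, 0 fell and 5 did not pass the adjusted test (Polr1d, Ubtf, Taf1d, Heatr1 and Nmd3). Of all genes tested, 35.2% were called, 18.5% as higher and 16.8% as lower in KO. That is 2375 higher and 2157 lower genes, and upper quartile scaling in place of TMM moved the split to 2933 and 1621. Without WT 2 and KO 2 together, 27 of the 47 rose, as did 710 of all genes. DESeq2 and limma-voom also called 0 of the 47 lower, as did edgeR at an unadjusted p under 0.05. The log2 fold change was above 0 for 46 of the 47 (50.2% of all genes), and its median was 0.54, against 0.00139 over all genes. For 44 genes all KO libraries lay above all WT libraries, an arrangement found for 27.0% of all genes, although Polr1d is among the 44 by a margin that disappears on rounding. The changes were moderate: the largest was that of Rrp12, 2.09-fold, and it was the one gene of the 47 that reached 2-fold. Summed over the 47 genes, WT libraries stood at 2331, 2203 and 2346 CPM and KO libraries at 2876, 3344 and 3121 CPM, which is 2293 ± 78.6 against 3114 ± 234. Abundant genes weigh most in this sum: Ncl held 394.3 CPM in WT and 518.7 CPM in KO, and Npm1 302.5 and 371.1 CPM.

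**Figure D1:**
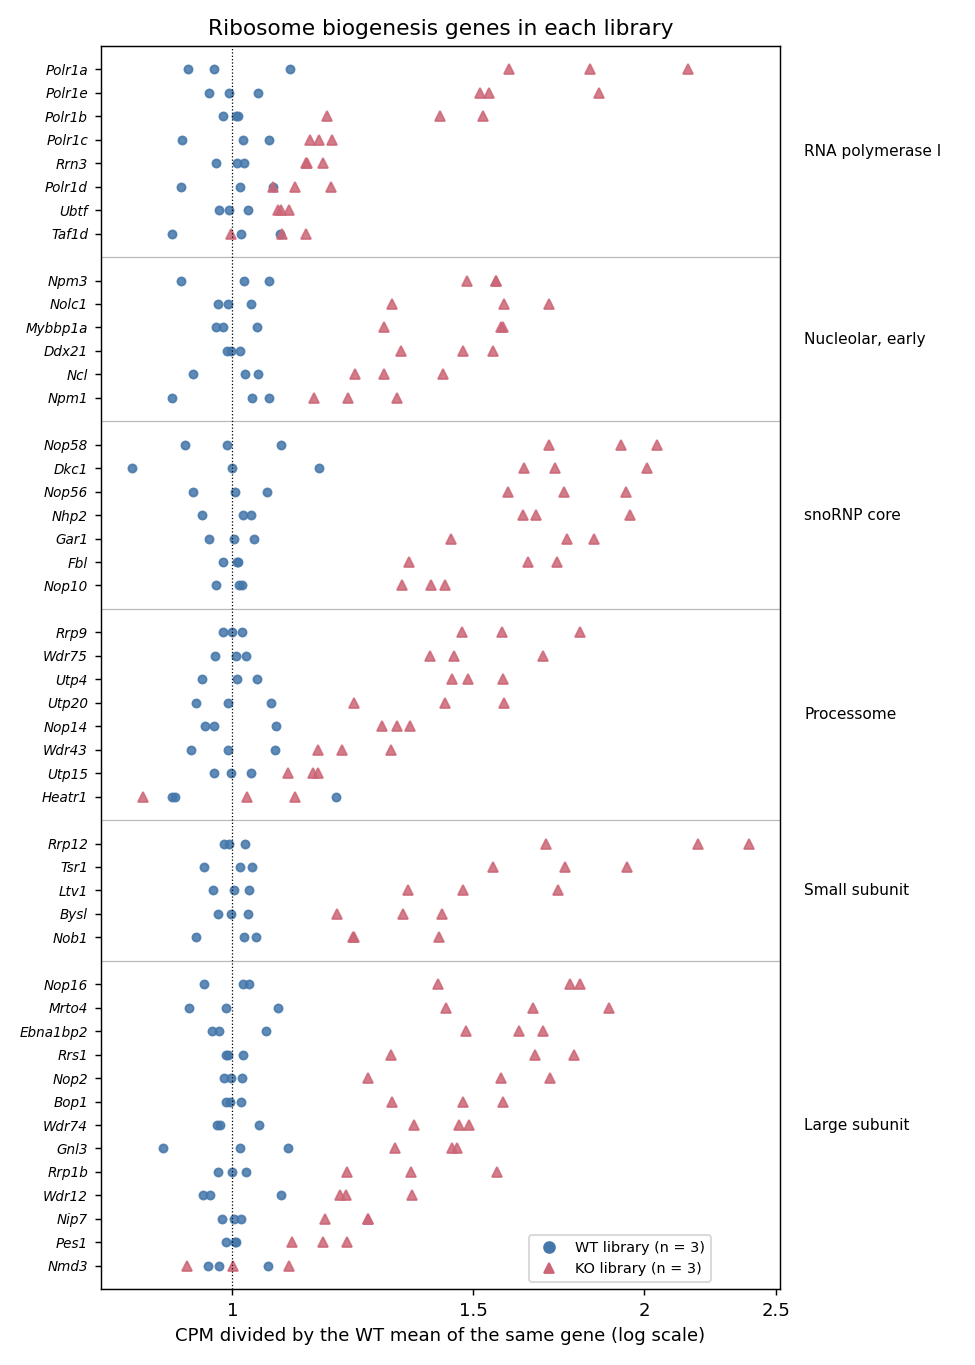
CPM of each of the 47 genes in each library, divided by the WT mean of that gene, on a log scale, with genes grouped by step of assembly. Blue circles are the 3 WT libraries and red triangles the 3 KO libraries. For 44 of the 47 genes every triangle lies to the right of every circle; the exceptions are Taf1d, Heatr1 and Nmd3, and in Polr1d the nearest circle and triangle touch.

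Genes of RNA polymerase I differed by unequal amounts. Of the 8 genes of this step 5 rose, at a median log2 fold change of 0.20. Leaving out WT 1 or KO 3 reduced the 5 to 2, and leaving out WT 2, WT 3 or KO 2 reduced them to 3, as did the authors' normalized values and edgeR without a filter on low counts. Polr1a (ENSMUSG00000049553, chromosome 6, 71909053 to 71984935, plus strand, on GRCm38) encodes the largest subunit, which forms the catalytic centre together with the subunit from Polr1b. Polr1a stood at 24.9, 26.0 and 29.5 CPM in WT and 42.7, 57.7 and 48.9 CPM in KO, a 1.86-fold rise (log2 fold change of 0.89, SE 0.12). Its KO libraries all exceeded the highest WT library by a wide margin. Polr1b stood at 14.9, 14.9 and 14.5 CPM in WT and 17.3, 22.5 and 21.0 CPM in KO (log2 fold change of 0.46, SE 0.10), and lost its call without WT 1 or KO 3. Polr1e, a subunit with a role in initiation and elongation, stood at 4.53, 4.38 and 4.76 CPM in WT and 7.02, 8.44 and 6.91 CPM in KO (log2 fold change of 0.71, SE 0.13). RNA polymerase I shares the products of Polr1c and Polr1d with RNA polymerase III. Polr1c rose from 27.1 ± 2.005 to 31.4 ± 0.602 CPM (log2 fold change of 0.21, SE 0.070), no longer called without any 1 of the 6 libraries, and Polr1d stood at 62.2, 53.3 and 58.9 CPM in WT and 64.6, 68.6 and 62.2 CPM in KO without passing the test.

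The factors that bring the polymerase to the ribosomal promoter were close between genotypes. Rrn3, the initiation factor known as TIF-IA, stood at 36.3, 35.0 and 36.6 CPM in WT and 40.8, 41.9 and 40.7 CPM in KO (log2 fold change of 0.19, SE 0.052). The libraries did not overlap, but the difference was small and the call remained only without KO 1 when 1 library was left out. Ubtf, the HMG-box protein that organises active ribosomal genes, stood at 120.4, 124 and 118 CPM in WT and 131, 133 and 131 CPM in KO (log2 fold change of 0.12, SE 0.050, not called). Taf1d, a subunit of the promoter selectivity factor SL1, overlapped between genotypes, at 33.2, 27.7 and 31.1 CPM in WT and 34.6, 33.3 and 30.6 CPM in KO.

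All 6 genes for nucleolar chaperones and other abundant nucleolar proteins rose, at a median log2 fold change of 0.55. Ncl, nucleolin, which binds the nascent precursor, stood at 411, 369 and 403 CPM in WT and 485, 563 and 509 CPM in KO (log2 fold change of 0.40, SE 0.078). Npm1, nucleophosmin, the chaperone that holds the granular part of the nucleolus together, went from 302 ± 25.9 to 371 ± 26.3 CPM (log2 fold change of 0.29, SE 0.085). Its call remained only without KO 1 when 1 library was left out, and Npm1 has processed copies in the genome that could share its counts. Its relative Npm3 rose from 15.9 ± 1.199 to 24.4 ± 0.680 CPM (log2 fold change of 0.62, SE 0.076). Nolc1, a chaperone that escorts snoRNPs, stood at 52.1, 51.2 and 54.1 CPM in WT and 68.6, 89.4 and 82.9 CPM in KO, a 1.53-fold rise. Mybbp1a, a nucleolar protein that binds MYB, rose from 122 ± 4.56 to 181 ± 19.9 CPM, and Ddx21, an RNA helicase that couples polymerase I transcription to processing, rose from 108 ± 1.17 to 157 ± 12.3 CPM. In each of these 6 genes KO 1 was the lowest KO library and still lay above every WT library.

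The core proteins of the snoRNPs formed the step with the highest median log2 fold change, 0.81, and all 7 rose, with calls that remained whichever library was left out. Box C/D particles methylate ribosomal RNA and are built from fibrillarin, NOP56, NOP58 and SNU13. Nop58 (ENSMUSG00000026020, chromosome 1, 59684971 to 59719044, plus strand) stood at 31.3, 29.1 and 34.2 CPM in WT and 53.7, 64.5 and 60.7 CPM in KO, a 1.89-fold rise (log2 fold change of 0.92, SE 0.089). Nop56 (ENSMUSG00000027405, chromosome 2, 130274430 to 130279313, plus strand), its paralog, stood at 43.3, 40.4 and 45.8 CPM in WT and 68.6, 83.8 and 75.5 CPM in KO (log2 fold change of 0.82, SE 0.086). Fbl, the methyltransferase itself, stood at 57.7, 57.6 and 56.3 CPM in WT and 76.9, 98.8 and 94.0 CPM in KO (log2 fold change of 0.65, SE 0.094). In all 3 genes the lowest KO library exceeded the highest WT library, with KO 1 lowest and KO 2 highest.

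Box H/ACA particles convert uridine to pseudouridine and also belong to telomerase, and their 4 core genes all rose. Dkc1, dyskerin, the pseudouridine synthase (ENSMUSG00000031403, chromosome X, 75095854 to 75109777, plus strand), stood at 16.6, 14.0 and 19.2 CPM in WT and 27.2, 33.4 and 28.7 CPM in KO (log2 fold change of 0.84, SE 0.13). Nhp2 stood at 41.1, 38.3 and 41.6 CPM in WT and 65.8, 78.8 and 67.3 CPM in KO (log2 fold change of 0.81, SE 0.082) and Gar1 at 11.5, 11.02 and 11.9 CPM in WT and 16.6, 21.1 and 20.1 CPM in KO (log2 fold change of 0.75, SE 0.10). The smallest core protein, from Nop10, had the smallest change of the step, at 31.6, 30.3 and 31.5 CPM in WT and 43.5, 44.5 and 41.4 CPM in KO (log2 fold change of 0.47, SE 0.056), and also tight replicates. Summed over the 7 core genes, WT libraries held 231.5 ± 9.95 CPM and KO libraries 388.4 ± 36.3 CPM.

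Of 8 genes of the small-subunit processome 7 rose, at a median log2 fold change of 0.45, within a wide range of fold changes. The 7 became 4 with the authors' normalized values, where Utp15, Utp20 and Wdr75 were not called, and also 4 without WT 2 and KO 2 together. Rrp9, a protein of the U3 snoRNP around which the processome forms, stood at 11.5, 11.7 and 11.9 CPM in WT and 17.2, 20.9 and 18.4 CPM in KO (log2 fold change of 0.69, SE 0.090). The UTP-A subcomplex, which meets the nascent precursor early, includes the products of Utp4, Utp15, Wdr43, Wdr75 and Heatr1. Utp4 rose from 15.4 ± 0.725 to 23.1 ± 1.03 CPM and Wdr75 from 17.2 ± 0.461 to 26.0 ± 2.67 CPM, 1.505- and 1.51-fold. Wdr43, of the same subcomplex, rose from 43.5 ± 3.06 to 53.1 ± 3.39 CPM, and lost its call without WT 1, WT 3, KO 2 or KO 3. Utp15 stood at 31.4, 30.5 and 32.5 CPM in WT and 36.3, 34.5 and 36.0 CPM in KO, a difference of 1.13-fold whose call was lost without any 1 library. Heatr1, the large scaffold of the same subcomplex (ENSMUSG00000050244, chromosome 13, 12395027 to 12440289, plus strand), stood at 46.96, 46.7 and 61.5 CPM in WT and 44.5, 57.5 and 53.0 CPM in KO. Its genotypes overlapped fully, WT 3 being the highest of the 6 libraries and KO 1 the lowest, and its log2 fold change was -0.00088 (SE 0.14; 0.14 without WT 3). Utp20, another large scaffold, rose from 36.7 ± 2.35 to 51.9 ± 6.51 CPM, and Nop14, which joins the processome to the pre-40S particle, from 33.3 ± 2.21 to 43.9 ± 1.03 CPM.

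The 5 genes for later steps of the small subunit all rose (3 without WT 1), at a median log2 fold change of 0.60. Rrp12 encodes a HEAT-repeat protein that helps to export both subunits (ENSMUSG00000035049, chromosome 19, 41862851 to 41896173, minus strand). It stood at 11.4, 11.3 and 11.7 CPM in WT and 19.5, 27.4 and 25.2 CPM in KO. Its WT libraries lay close together and its KO libraries, all above them, were spread more widely. The log2 fold change was 1.06 (SE 0.13; 0.96 to 1.19 when any 1 library was left out). Tsr1, a GTPase-like factor of the cytoplasmic pre-40S particle (ENSMUSG00000038335, chromosome 11, 74898071 to 74909342, plus strand), stood at 29.7, 28.0 and 30.3 CPM in WT and 45.5, 56.9 and 51.3 CPM in KO (log2 fold change of 0.81, SE 0.088). Ltv1, which holds back premature maturation of the 40S head, rose from 22.9 ± 0.695 to 34.7 ± 4.49 CPM. Bysl, bystin, rose from 16.4 ± 0.413 to 21.5 ± 1.91 CPM, no longer called without WT 1, and Nob1, the nuclease that makes the last cut of 18S ribosomal RNA, from 17.9 ± 0.935 to 23.0 ± 1.95 CPM, no longer called without WT 1 or WT 2.

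Of 13 genes of the large subunit 12 rose, at a median log2 fold change of 0.52. The PeBoW complex, needed for processing of the large-subunit RNAs, is formed by the products of Pes1, Bop1 and Wdr12, and its genes rose by unequal amounts. Bop1 stood at 36.3, 36.0 and 36.9 CPM in WT and 47.7, 53.7 and 57.4 CPM in KO (log2 fold change of 0.54, SE 0.075). Pes1 stood at 112, 112 and 110.4 CPM in WT and 123, 135 and 129.9 CPM in KO (log2 fold change of 0.22, SE 0.055), with the call remaining only without KO 1 when 1 library was left out. Wdr12 rose from 17.1 ± 1.27 to 21.5 ± 1.48 CPM, no longer called without WT 1, WT 3, KO 2 or KO 3.

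The other large-subunit genes also differed in the size of their fold changes. Nop16 stood at 19.9, 21.5 and 21.2 CPM in WT and 29.5, 36.8 and 37.4 CPM in KO and Ebna1bp2, which helps to form the nucleolar particle (ENSMUSG00000028729, chromosome 4, 118620799 to 118627776, plus strand), at 30.7, 31.0 and 33.6 CPM in WT and 47.1, 53.6 and 51.5 CPM in KO. Mrto4, which keeps the place of the stalk protein until the subunit reaches the cytoplasm, stood at 15.6, 13.4 and 14.3 CPM in WT and 20.7, 27.3 and 24.0 CPM in KO. These are rises of 1.66-, 1.597- and 1.66-fold. Rrs1, which brings in the 5S ribosomal RNA particle, went from 27.5 ± 0.435 to 43.6 ± 6.78 CPM, and Nop2, a methyltransferase of the large ribosomal RNA, from 34.0 ± 0.514 to 51.5 ± 7.89 CPM. Wdr74, which works with the remodelling ATPase NVL, rose from 15.6 ± 0.625 to 22.3 ± 1.09 CPM. Gnl3, the GTPase nucleostemin, rose from 35.1 ± 3.69 to 49.4 ± 2.81 CPM. Rrp1b, which also binds a protein phosphatase in the nucleolus, rose from 14.4 ± 0.341 to 19.8 ± 2.52 CPM, no longer called without WT 1, and Nip7 rose from 20.8 ± 0.346 to 25.5 ± 1.05 CPM, no longer called without WT 1 or KO 3. Nmd3, which links the large subunit to the export receptor XPO1 (ENSMUSG00000027787, chromosome 3, 69721985 to 69756373, plus strand), stood at 30.7, 27.7 and 28.3 CPM in WT and 31.8, 28.9 and 26.8 CPM in KO, and the genotypes overlapped (log2 fold change 0.012, SE 0.080). The receptor gene Xpo1, chosen for mention after its value was seen, rose from 72.0 ± 4.18 to 104 ± 9.41 CPM (edgeR, Benjamini-Hochberg adjusted p = 0.00615).

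**Figure D2:**
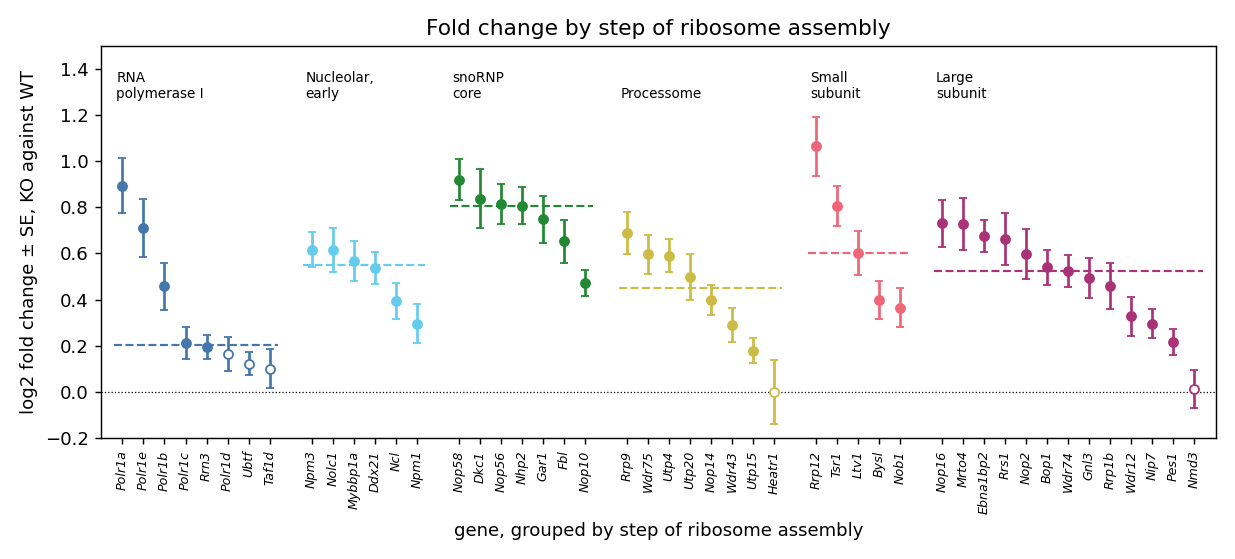
log2 fold change of KO against WT with its standard error for each of the 47 genes, grouped by step; dashed lines are medians of a step, filled points are genes called in the fit over all genes and open points are the 5 that were not. The snoRNP core has the highest median (0.81) and RNA polymerase I the lowest (0.20), where Polr1a, Polr1e and Polr1b stand apart from the other 5 genes.

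Per kilobase of 1 annotated transcript per gene, the levels within a complex can be set side by side. Among box C/D proteins Fbl was at 47.8 CPM per kilobase in WT and 75.1 in KO, Nop56 at 23.0 and 40.5, and Nop58 at 18.4 and 34.8. Fbl was thus the highest of the 3 in both genotypes. Among box H/ACA proteins Nhp2 was at 38.7 and 67.8 CPM per kilobase, Nop10 at 28.1 and 38.9, Gar1 at 9.02 and 15.2, and Dkc1 at 5.93 and 10.6. The order of these 4 genes was the same in both genotypes. Npm1 had the highest level per kilobase of all 47, 185 in WT and 227 in KO. These levels depend on the transcript model, since the model used is 8202 bases long for Ncl and 1713 for Nop58, and they carry no test between genes.

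RefSeq promoter windows on GRCm38.p6, 250 bases before to 50 after the annotated start, were found for 42 of the 47 genes. Of these genes 3 had more than 1 window, and the first listed was used for every gene. The starts used can differ from the gene positions given above. The windows were searched for the E-box CACGTG, the palindromic word that MYC and MAX bind, on both strands. It was present in 10 of the 42 windows (23.8%), compared with 10.4% of 9525 windows of genes tested here and 7.24% of all 27025 windows. It was in 17.9% of 95 windows of the other ribosome assembly genes described further on, and in 10.8% of windows of tested genes within the range of GC content of the 42. By step, it was in 0 of 6 windows of the snoRNP core and 1 of 8 of RNA polymerase I. It was in 1 of 5 of the nucleolar proteins and 3 of 8 of the processome. For later small-subunit steps it was in 2 of 4, and for the large subunit in 3 of 11. Npm1, Fbl, Rrp12, Bop1 and Rrs1 were not among the 42. Another, longer word was also searched for in the same windows. That longer word was in 0 of the 42, 1.1% of windows of tested genes and 1.05% of those of the other ribosome assembly genes. At shares this low, its absence from 42 windows says little. In 7 of the 10 genes a CACGTG began after the start site. Windows with the word in that stretch made up 16.7% of the 42 and 1.67% of the windows of tested genes. That stretch was not set apart in the plan of the analysis, and its share in the other ribosome assembly genes was not computed. These shares are descriptions of a list proposed with the expression differences known, with no test, and a word is not a site shown to be bound. The 7 stretches are shown because they share the word within 50 bases after the start, with CACGTG in capitals and up to 10 bases on each side, in the direction of transcription.
Pes1, word from base 3 after the start, chr11:3963967-3963992, plus strand: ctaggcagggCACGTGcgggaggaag
Utp4, word from base 16, chr8:106893645-106893670, plus strand: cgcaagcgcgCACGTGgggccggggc
Wdr43, word from base 18, chr17:71616222-71616247, plus strand: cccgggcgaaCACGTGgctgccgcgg
Tsr1, word from base 25, chr11:74898094-74898119, plus strand: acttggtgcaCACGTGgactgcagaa
Ltv1, word from base 29, chr10:13193094-13193119, minus strand: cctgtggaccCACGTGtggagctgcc
Utp20, word from base 38, chr10:88826765-88826787, minus strand: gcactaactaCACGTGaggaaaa
Mybbp1a, word from base 41, chr11:72441357-72441376, plus strand: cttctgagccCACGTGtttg

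The other 3 genes held the word before the start. The 250 bases before the start are printed for those 3, with CACGTG in capitals. Rrn3 holds it at 2 places and Nop2 and Nmd3 at 1 each. Over all 10 genes with the word, log2 fold changes ran from 0.012 (Nmd3) to 0.81 (Tsr1), and over the 32 without it from -0.00088 (Heatr1) to 0.92 (Nop58). Whether the word goes with the size of the change was not tested.
Rrn3, chr16:13780449-13780698, plus strand: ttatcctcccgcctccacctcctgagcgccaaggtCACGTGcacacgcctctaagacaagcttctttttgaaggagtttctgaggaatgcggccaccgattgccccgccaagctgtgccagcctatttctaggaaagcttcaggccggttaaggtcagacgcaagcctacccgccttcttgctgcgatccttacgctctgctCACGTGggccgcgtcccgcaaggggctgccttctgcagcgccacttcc
Nop2, chr6:125131633-125131882, plus strand: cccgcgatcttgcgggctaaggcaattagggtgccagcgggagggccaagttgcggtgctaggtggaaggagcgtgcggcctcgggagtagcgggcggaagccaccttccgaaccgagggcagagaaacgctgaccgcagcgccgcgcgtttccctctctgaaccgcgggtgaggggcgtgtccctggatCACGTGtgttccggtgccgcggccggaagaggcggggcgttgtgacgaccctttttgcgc
Nmd3, chr3:69721805-69722054, plus strand: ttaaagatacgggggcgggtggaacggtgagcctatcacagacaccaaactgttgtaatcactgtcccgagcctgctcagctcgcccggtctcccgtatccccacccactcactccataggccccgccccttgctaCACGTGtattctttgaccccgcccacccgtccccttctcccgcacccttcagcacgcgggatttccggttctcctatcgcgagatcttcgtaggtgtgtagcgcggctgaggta

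Genes of the MYC network were read beside this. Myc stood at 25.1, 24.3 and 28.9 CPM in WT and 36.4, 46.9 and 44.5 CPM in KO (log2 fold change of 0.71, SE 0.11; edgeR, Benjamini-Hochberg adjusted p = 0.00655). Its partner Max stood at 83.2, 92.0 and 78.3 CPM in WT and 82.2, 78.6 and 80.3 CPM in KO and was not called. The repressive partners of MAX fell in part: Mxd4 went from 187 ± 11.6 to 117 ± 18.9 CPM, Mxd1 from 25.8 ± 6.21 to 14.2 ± 2.496 CPM and Mnt from 106 ± 3.50 to 90.6 ± 5.00 CPM. Mxd3, which belongs to the same family, was scarce and rose from 0.701 ± 0.207 to 1.33 ± 0.230 CPM, and Mycl, also scarce, from 0.727 ± 0.0488 to 1.28 ± 0.241 CPM. Of the 10 genes of the network that were tested 3 rose and 3 fell (18.5% and 16.8% of all genes). The 3 rises became 1, as also in DESeq2, without WT 1, WT 2, KO 2 or KO 3, and the 3 falls became 2 without any 1 library except KO 1.

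Other ribosome assembly genes, listed from their known function, also stood higher in KO, by less. Of 119 such genes tested 68 rose and 1 fell (18.5% and 16.8% of all genes), at a median log2 fold change of 0.24, and leaving out WT 1, WT 2 or KO 3 reduced the 68 to 39, 44 and 43. Among 53 for the large subunit 31 rose (20 without WT 1), with Ppan going from 18.4 ± 1.263 to 32.1 ± 4.10 CPM, Ddx27, a helicase, from 36.1 ± 1.53 to 50.9 ± 3.00 CPM, and Urb2 from 16.6 ± 0.575 to 23.3 ± 0.790 CPM. The gene that fell was Nop53, a late large-subunit factor, from 169 ± 9.04 to 132 ± 3.77 CPM. Among 43 for the small subunit 26 rose and 0 fell (13 rises without WT 1, 14 without WT 2 or KO 2, 15 without KO 3, 17 without WT 3). Nat10, the RNA acetyltransferase, went from 22.8 ± 0.832 to 34.9 ± 1.74 CPM, Nol11 from 23.5 ± 0.756 to 32.3 ± 0.902 CPM and Pwp2, of the UTP-B subcomplex, from 22.0 ± 0.172 to 33.3 ± 2.46 CPM. Of 10 snoRNP assembly genes 6 rose, among them Snu13, the remaining box C/D protein, from 41.6 ± 3.18 to 57.2 ± 4.16 CPM, and the ATPases Ruvbl1 and Ruvbl2, from 21.6 ± 0.395 to 30.4 ± 1.45 CPM and from 30.1 ± 0.170 to 40.2 ± 2.09 CPM. DESeq2 and limma-voom also called 0 small-subunit and snoRNP genes lower.

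**Figure D3:**
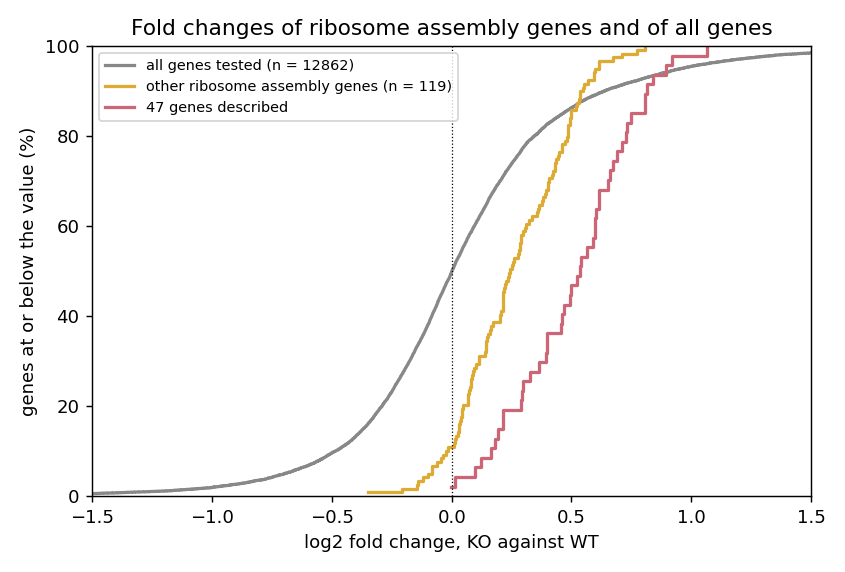
Cumulative share of genes, in percent, at or below each log2 fold change of KO against WT, for the 47 genes described, 119 other ribosome assembly genes and all 12862 genes tested. The medians are 0.54, 0.24 and 0.00139. Values beyond 1.5 in either direction are outside the axis. The 47 genes and the other ribosome assembly genes were listed with earlier results of these data known.

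Further genes of the RNA polymerase I machinery were also split. Of 13 further genes 5 rose and 0 fell (18.5% and 16.8% of all genes). All 5 encode subunits common to several nuclear RNA polymerases, such as Polr2f, from 21.9 ± 0.595 to 32.1 ± 1.11 CPM, Polr2e, from 51.0 ± 1.39 to 65.7 ± 3.22 CPM, and Polr2l, from 15.2 ± 0.108 to 22.1 ± 3.76 CPM. Leaving out WT 1, WT 2 or KO 3 left 2 of the 5 calls, and leaving out WT 3 left 3. The remaining polymerase I subunits Polr1f, Polr1g and Polr1h, named after their values were seen, had log2 fold changes of -0.14, 0.29 and 0.069 and were not called, nor were Taf1a, Taf1b and Taf1c of the SL1 factor, at 0.031, -0.061 and 0.094. RNA polymerase III and its factors, which make the 5S ribosomal RNA, went both ways. Of 20 tested 6 rose and 3 fell (18.5% and 16.8% of all genes), at a median of -0.0095. Without WT 1 or WT 2 there were 2 rises and 0 falls, without KO 3 there were 2 and 1, and without KO 2 there were 3 and 2. Polr3d rose from 11.3 ± 0.191 to 15.9 ± 1.599 CPM and Gtf3c1 fell from 81.3 ± 1.40 to 68.8 ± 3.09 CPM, each in the fit with all libraries. Of 12 genes of the nuclear RNA exosome, which trims ribosomal precursors, 9 rose and 0 fell (18.5% and 16.8% of all genes). Dis3 went from 15.6 ± 0.430 to 24.9 ± 2.95 CPM and Exosc8 from 16.7 ± 0.796 to 24.7 ± 2.71 CPM. DESeq2 and limma-voom also called 0 exosome genes lower. Of 8 long RNAs that carry snoRNAs in their introns 2 rose, 25.0% beside 18.5% of all genes. Snhg5 went from 8.15 ± 1.06 to 12.6 ± 1.40 CPM and Snhg6 from 6.82 ± 1.38 to 10.4 ± 0.0919 CPM. Without WT 1 there were 3 called, and 1 without WT 2, WT 3 or KO 3.

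Genes of cell division differed between the same libraries. All 15 DNA replication genes examined rose, at a median log2 fold change of 1.06, for example Pcna from 243 ± 38.4 to 545 ± 112 CPM and Prim1 from 6.49 ± 1.40 to 13.6 ± 2.21 CPM. Without a filter on low counts edgeR called 5 of the 15. The 15 calls became 4 without WT 1, 8 without KO 2 and 9 without KO 3. Their summed level was 645, 557.2 and 827 CPM in WT and 1139, 1724 and 1319 CPM in KO. Of 15 mitosis genes 3 rose (Aurka, Birc5 and Tpx2), 20.0% beside 18.5% of all genes, with a median of 1.0 and wide spread in WT. DESeq2 called 10 of them and limma-voom 11, and edgeR 15 without WT 3, 1 without KO 1 and 0 without any 1 of the other libraries. Mki67 stood at 87.9, 60.3 and 148 CPM in WT and 130.1, 200.2 and 139 CPM in KO, with WT 3 above KO 1 and KO 3. The mitosis genes summed to 310, 205.1 and 502 CPM in WT and 499, 845 and 571 CPM in KO. Across the 6 libraries the part of cell division and of the macrophage markers in these differences was not tested.

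**Figure D4:**
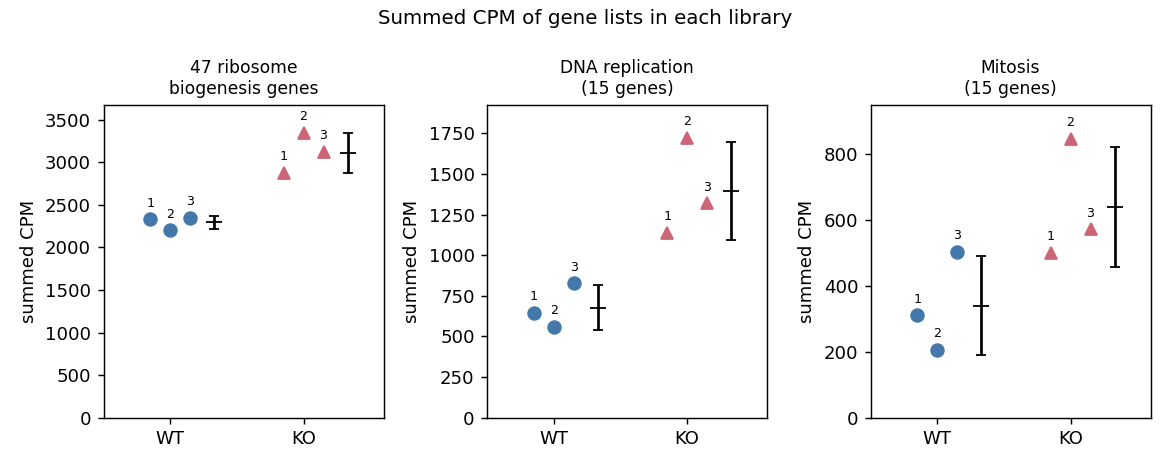
Summed CPM per library of the 47 ribosome biogenesis genes, of 15 DNA replication genes and of 15 mitosis genes, with WT libraries as blue circles, KO libraries as red triangles, the library number above each point, and mean ± SD (n = 3) beside them; axes start at 0. All KO libraries lie above all WT libraries in the ribosome and DNA replication panels, whereas in the mitosis panel WT 3 (502 CPM) lies slightly above KO 1 (499 CPM).

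KO 2 was the highest of the 6 libraries for 38 of the 47 genes (80.9%), and WT 2 was the lowest for 25 (53.2%). These shares were close to those of all genes called higher in KO, 80.5% and 53.8%. KO 1 was nearest to WT, with a median of 0.13 on the log2 scale above a gene's mean over the 6 libraries, against 0.37 in KO 2 and 0.28 in KO 3. KO 2 had the highest median in each step except the large subunit, where KO 3 stood at 0.31 and KO 2 at 0.30.

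Several of the 47 genes carry other genes within them. In 8 of them lie 29 annotated snoRNA genes, among them those within Ncl, Nop56, Nop58, Gnl3 and Taf1d, and all 29 had 0 counts in all 6 libraries, so the small RNAs themselves were not measured here. Exons of 14 of the 47 overlap exons of a protein-coding gene on the other strand, and the strand setting of the counting is not given in the sources used here. The largest overlap is that of Tsr1 with Srr, 32.3% of the exon bases of Tsr1. Srr had a log2 fold change of -0.28 (SE 0.10, not called) and had 2076 counts over the 6 libraries. Bysl shares 9.37% of its exon bases with Ccnd3, which fell (log2 fold change -0.38, SE 0.05), whereas Bysl rose. Heatr1 shares 1.98% of its exon bases with Lgals8, named after its values were seen. Lgals8 stood at 102, 108 and 137 CPM in WT and 85.1, 111 and 97.5 CPM in KO. As in Heatr1, WT 3 was the highest library and KO 1 the lowest. Whether these genes share reads was not tested.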

How the data were processed

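The analysis starts from deposited counts, raw whole numbers for each Ensembl gene; a normalized signal made by the authors entered 1 alternative only. The submitters' processing notes name DRAGEN, DESeq2 and mm10; how reads were counted, with which strand setting and annotation, is not given in the sources used here. Libraries were directional, per the labels' protocols. Replicates were numbered in sample order. Symbols, positions and transcript lengths come from the GENCODE annotation of GRCm38 (the transcript of best APPRIS rank, then best support, then greatest length).

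Counts were fitted with edgeR 4.0.16 in R 4.3.3: filterByExpr (minimum count 10), TMM, quasi-likelihood F test (robust) of genotype with no covariate, 12862 genes, Benjamini-Hochberg adjustment over all of them, threshold 0.05. SE is the log2 fold change over the root of F. The 47 genes, the lists and the choice of tests were made with earlier results of these data known. Named genes are the 47, up to 3 called genes per direction of each further list by smallest p, and Myc, Max, Mki67 and Cdh11; others are marked where named. Of 317 listed symbols, 311 matched. Alternatives were DESeq2 1.42.0, limma-voom (limma 3.58.1), other scalings, other filters, limma applied to log2(signal + 1) and leaving out libraries. Replicate pairs differed beyond sampling noise (chi-square statistic 12.57 to 52.6 times its degrees of freedom).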

Additional observations from a re-analysis of the deposited data

How the results depend on the processing

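No paired analysis was possible because the labels give the libraries no replicate numbers shared between genotypes. The median log2 fold change of the 47 genes stayed between 0.49 and 0.60 over all alternatives, and 0 were called lower under any of them. Leaving out 1 library gave 30 (without WT 1) to 40 (without KO 1) of the 47 called higher, 39 to 67 of the other ribosome assembly genes called higher and 1 to 2 called lower, and 1979 to 5456 genes called in all. The calls of 30 of the 47 genes remained in all 6 of these fits. Without WT 2 and KO 2 together, 27 of the 47, 27 of the other assembly genes and 1378 of all genes were called. Fewer libraries also give the test less power. The deposited signal gave 35 of the 47, DESeq2 40 and edgeR without a filter 39. The CPM filter gave 2 falls among the other assembly genes in place of 1. Upper quartile scaling moved their median to 0.30 and the share of higher genes among all called from 52.4 to 64.4%, with 43 of the 47 higher.

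Genes without a call changed sign at values near 0. Heatr1 was at 0.0038 with limma-voom, 0.059 with upper quartile scaling, 0.014 with total counts and -0.084 to 0.14 without 1 library. Nmd3 was at -0.055 to 0.066 without 1 library and -0.0114 without WT 2 and KO 2, where Max was at 0.0077.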
